A study of Mus musculus with 6 samples.

Results

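The Hox genes of the brain were examined by array in 4 mice lacking melanotransferrin and 2 wild-type mice. Members were all probe sets annotated to exactly 1 symbol made of Hoxa, Hoxb, Hoxc or Hoxd and a number from 1 to 13, with no filter on dim signals. Each probe set gives 1 signal from several short probes to a transcript. The rule found 33 genes of 18193, with 48 of the 45037 probe sets. RefSeq lists 39 mouse Hox genes, and those with no probe set that met the rule were not analysed here. Of the 33 genes, 22 had 1 probe set and 11 had more, so 48 probe sets are not 48 separate genes.

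The knockout mice carried the MTf -/- genotype on a strain given as C57BL/6 - Lucy, where the labels leave the last word unexplained. The wild-type mice were MTf +/+ and C57BL/6. All 6 were females of 123 days from the same litter, received no stated treatment, and gave brain total RNA for 1 Mouse Genome 430 2.0 array each. The labels state neither how the allele was made nor where the dissection ended at the caudal side of the brain. Animal and array spread enter each p-value together, since each mouse had 1 array, and the small number of arrays limits the precision. The arrays below are called knockout 1 to 4 and wild type 1 and 2, in the order of deposit.

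Hox genes encode homeodomain transcription factors that lie in 4 clusters, named A to D. Members with the same number in different clusters are paralogues, and the number follows the order within a cluster. Low numbers are expressed up to a more anterior limit in the hindbrain, middle numbers up to limits in the caudal medulla and cervical cord, and high numbers only farther back in the spinal cord and limbs. The forebrain and midbrain do not normally express them. Neurons of the adult pons and medulla keep part of this pattern, so hindbrain tissue is a source of Hox RNA in a whole-brain sample, though other cells can carry it too.

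Some arrays stood apart before any Hox gene was considered. On wild type 1, 24.5% of probe sets had a signal below 49.6, the value added before taking logarithms, against 17.6% to 20.2% on the other arrays. In knockout 2 the Purkinje cell gene Pcp2 read 185.8, against 22259.7 to 34049.7 elsewhere. Neurod6, a cortical neuron gene, read 2646.4 to 4821.9 over all 6 arrays. Meltf itself did not check the labels. Its only probe set read 80.7, 132.9, 155.9 and 84.1 on the knockout arrays and 146.5 and 228.7 on the wild-type arrays, where the groups overlapped (limma adjusted p = 0.784).

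Hoxa5, on 1 of its probe sets, and Hoxc4 were both near background in knockout 2, as described below, and RefSeq promoter windows were at hand for both. RefSeq, build GRCm38.p6, gave 21 windows for 19 of the 33 genes, each of 300 bases around a gene start. Capitals mark the longest run of letters that both windows share, TTGCCATAATGG, and the retinoid receptor half-site AGGTCA, which reads TGACCT on the other strand. The Hoxa5 window lies at chr6:52204538-52204837 on the minus strand, and the Hoxc4 window at chr15:103034145-103034444 on the plus strand.
Hoxa5: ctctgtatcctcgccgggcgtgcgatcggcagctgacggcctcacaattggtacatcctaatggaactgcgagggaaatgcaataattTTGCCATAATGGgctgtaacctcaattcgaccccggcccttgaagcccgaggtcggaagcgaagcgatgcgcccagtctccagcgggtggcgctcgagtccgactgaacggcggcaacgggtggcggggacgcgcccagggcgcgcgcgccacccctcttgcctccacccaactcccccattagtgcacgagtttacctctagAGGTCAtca
Hoxc4: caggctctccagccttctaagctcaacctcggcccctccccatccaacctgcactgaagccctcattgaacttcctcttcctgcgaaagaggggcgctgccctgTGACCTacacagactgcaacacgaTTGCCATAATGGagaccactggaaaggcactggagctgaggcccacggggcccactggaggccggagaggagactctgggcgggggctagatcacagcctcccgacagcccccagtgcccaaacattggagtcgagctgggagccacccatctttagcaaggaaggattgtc

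The shared run of 12 bases began at base 89 of the Hoxa5 window and base 129 of the Hoxc4 window. It was found by comparing these sequences and was present, on either strand, in 2 of 32851 mouse windows, namely these 2. The half-site AGGTCA began at base 292 in Hoxa5 and base 105 in Hoxc4, overlapped the shared run in neither, and was held by 16.3% of all windows and by 6 of the 21 Hox windows. The letters TGATNNAT, of the kind bound by Hox and Pbx proteins together, were in 3 Hox windows and 8.85% of all. The Meis motif TGACAG was in 2 Hox windows and 19.2% of all, and TATAAA in 2 and 13.6%. All were searched on both strands, and neither printed window held any of these 3 motifs. Hox windows had a median of 15.0 CpG dinucleotides, against 7 over all windows, with 29 in Hoxa5 and 9 in Hoxc4.

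Most Hox probe sets were dim. Of the 48, 9 had a mean log2 value above the 40th percentile of all probe sets, a signal of about 143, which is 18.8% of the members against 60% of all probe sets. The genes Uty, Kdm5d, Eif2s3y and Sry, which female mice lack, gave a rough guide to signal without a target: over their 11 probe sets the median was 20.6 and the highest value 259.3. Of the 288 Hox values, 29 exceeded that highest value, and they came from 11 probe sets. These were Hoxb2, Hoxb3, Hoxc4, both probe sets of Hoxa5, Hoxb5, Hoxb6, 2 probe sets of Hoxc6, Hoxa9 and Hoxc9. Probe sets differ in their own background, so a dim Hox probe set was not called absent.

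The clearest pattern in these genes was between animals of the same genotype. Hoxb2, Hoxc4, Hoxb5 and 1 of 2 probe sets each of Hoxb3 (1456229_at) and Hoxa5 (1448926_at) had near-background signals in knockout 2. All of these but Hoxa5 had them in knockout 1 as well, while knockout 3 and both wild-type arrays gave signals of 200.0 or more. Some of these signals were below 259.3. The other Hoxa5 probe set, 1443803_x_at, read 821.0 in knockout 2 and did not share the pattern. In bulk tissue, fewer cells of a type and less RNA per cell cannot be told apart.

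Hoxb5, which acts at the level of the caudal medulla and neck, read 27.3, 13, 403.8 and 211.6 on the knockout arrays, in order, and 377.8 and 353.1 on the wild-type arrays. Knockouts 1 and 2 lay far below the rest, while knockout 3 lay above both wild-type mice, so the groups overlapped. The log2 fold change, knockout minus wild type, was -1.42 ± 0.73 (SE, limma adjusted p = 0.743). Without knockout 2 it was -0.99, and without knockout 3 -1.94.

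Hoxb3, its neighbour in the B cluster beyond Hoxb4, read 18.5, 15.2, 460.1 and 229.3 in the knockout mice and 255.2 and 519.7 in the wild type on its brighter probe set, 1456229_at. Again knockouts 1 and 2 were low, and the other 2 knockout mice lay in or near the wild-type range. The low values of Hoxb3 and Hoxb5 were themselves near the Y-linked median of 20.6, so no fold is given against them. The log2 fold change of Hoxb3 was -1.40 ± 0.80 (SE, limma adjusted p = 0.755), and it was -0.97 without knockout 2 and -1.85 without wild type 1.

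Hoxb2, which helps to set the identity of facial motor neurons in the hindbrain, read 38.8, 10.9, 397.2 and 32.9 in the knockout mice and 218.5 in each wild-type mouse. Here knockout 4 was low together with knockouts 1 and 2. Its log2 fold change was -1.18 ± 0.70 (SE, limma adjusted p = 0.759), -1.82 without knockout 3 and -0.85 without knockout 2.

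Hoxc4 had the same split. It read 22.7, 20.7, 290.5 and 25.4 in the knockout mice and 200.0 and 330.2 in the wild type, so that knockout 3 alone among the knockouts reached the wild-type range. The log2 fold change, -1.53 ± 0.63 (SE), with an unadjusted 95% interval of -2.94 to -0.11, was the lowest of all 48 members (limma adjusted p = 0.738). It was -2.09 without knockout 3 and -1.23 without wild type 2.

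Hoxa5, which takes part in the making of neck motor neurons and stays on in adult brainstem, was low in 1 mouse only on probe set 1448926_at. It read 239.1, 19.2, 659.7 and 560.4 in the knockout mice and 447.7 and 594.8 in the wild type. Knockout 1 lay below the other 4 arrays and knockout 2 far below all of them. The log2 fold change of -0.89 ± 0.78 (SE) was -0.18 without knockout 2 (limma adjusted p = 0.820 with all arrays and 0.942 without that mouse).

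Hoxa4, on the brighter of its probe sets, was dimmer but kept the order, with 8.2, 3.2, 133.5 and 36.4 in the knockout mice and 41.5 and 107.9 in the wild type. No value of this probe set exceeded 259.3. Its log2 fold change was -0.52 ± 0.50 (SE, limma adjusted p = 0.834), and -0.13 without wild type 2.

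**Figure D1:**
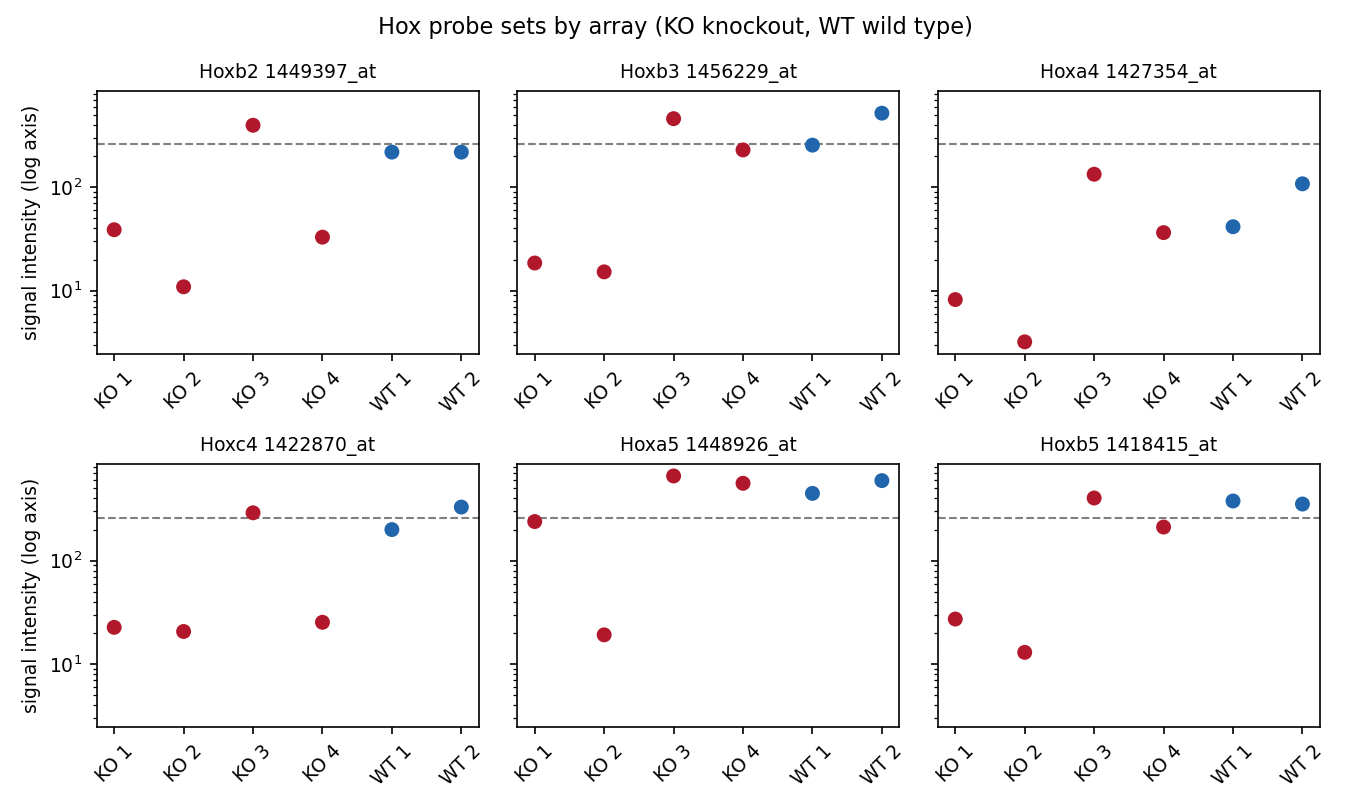
Signal intensity on a log axis for 6 Hox probe sets on each array, with knockout (KO) in red, wild type (WT) in blue, 1 point per array and the highest Y-linked signal of 259.3 as a dashed line. Hoxb3 reads 18.5 and 15.2 in knockouts 1 and 2 and 229.3 to 519.7 on the other 4 arrays.

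The 2 lowest of the 6 arrays were knockouts 1 and 2 for 11 of the 48 members, or 22.9%, and for 5.94% of all probe sets. This grouping was chosen after the values were seen and is a description. It covered the single probe sets of Hoxc4, Hoxb5, Hoxb6 and Hoxa11, and 1 probe set each of Hoxa3, Hoxb3, Hoxa4, Hoxa5, Hoxc5, Hoxc6 and Hoxd8, whose other probe sets did not show it. Hoxa4 on its other probe set was highest in knockout 1, at 65.8, and Hoxd8 on its other probe set was lowest in knockout 3, at 5.8. By class, it held for 2 of 11 members with numbers 1 to 3, 8 of 20 with numbers 4 to 8, and 1 of 17 with numbers 9 to 13. After quantile normalisation the count was 12, against 7.5% of all probe sets, and after median centring 12, against 8.43%. The standard deviation over the 6 arrays on the log2 scale was in the largest 10% of all probe sets, at least 0.67, for 11 members, or 22.9%. It was 1.39 for Hoxb3, 1.3 for Hoxb5, 1.28 for Hoxa5, 1.19 for Hoxc4 and 1.18 for Hoxb2, values that 0.0755% to 0.147% of all probe sets reached.

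**Figure D2:**
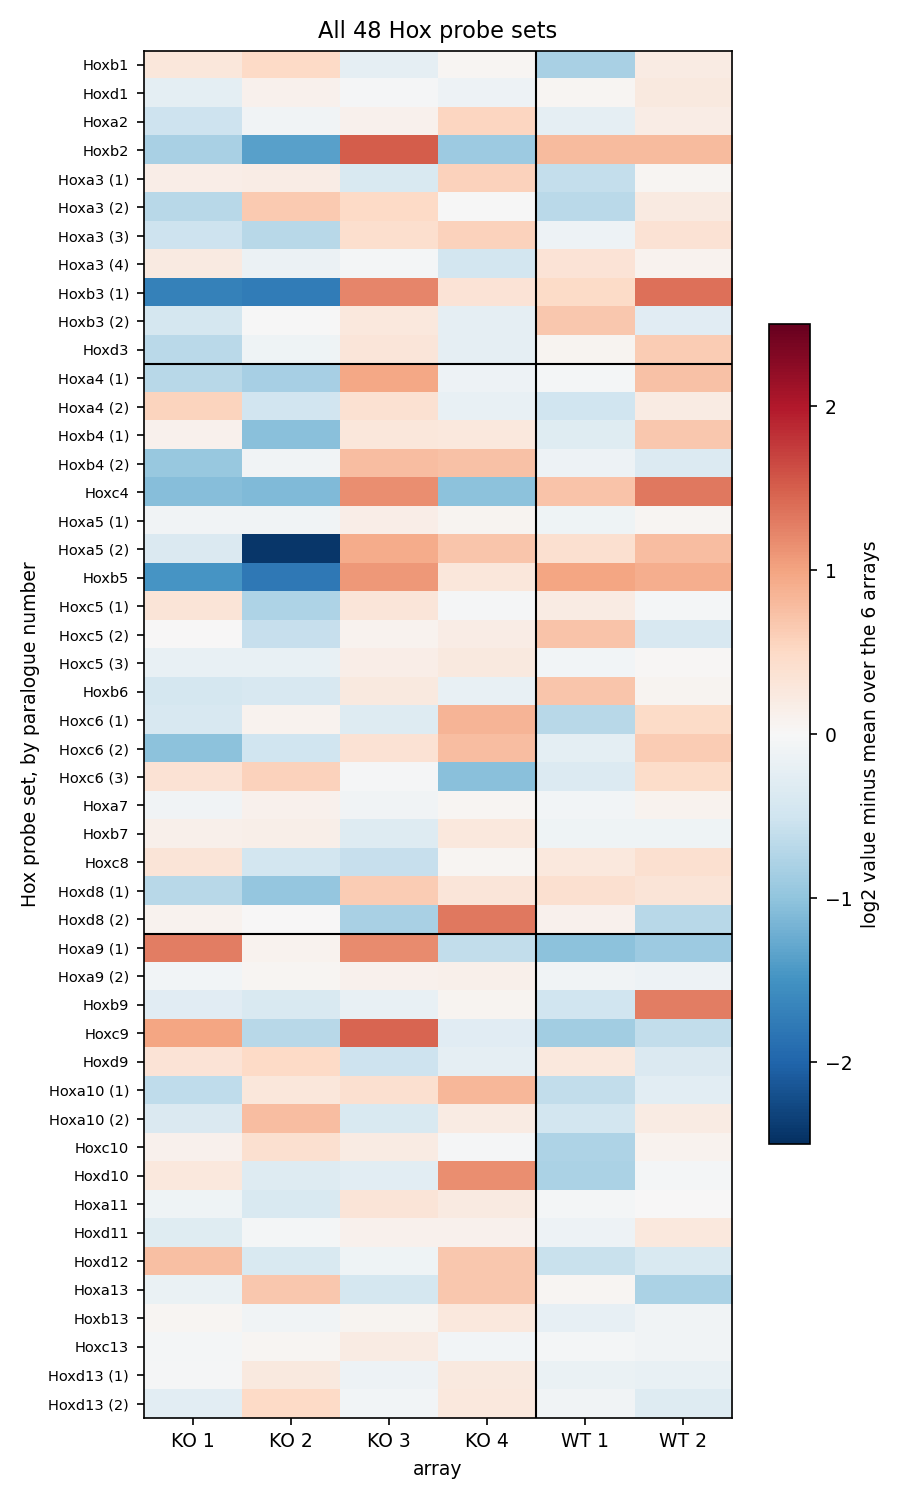
Each of the 48 Hox probe sets (rows, by paralogue number, with the probe sets of 1 gene numbered by mean signal) on each array (columns), coloured by log2 value minus its mean over the 6 arrays. Blue cells gather in knockouts 1 and 2 among numbers 2 to 6, and the mean of numbers 4 to 8 was -0.54 in knockout 2 and -0.28 in knockout 1.

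Levels by paralogue number showed how the animals differed along the series. Each level is the mean, over the probe sets of a number, of the log2 value minus that probe set's own mean over the arrays. For number 5, with 6 probe sets, it was -0.30, -0.98, 0.46 and 0.25 on the knockout arrays against 0.36 and 0.22 on the wild-type arrays. For number 4, with 5 probe sets, it was -0.41, -0.71, 0.71 and -0.06 against -0.05 and 0.52.

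Both numbers were lowest in knockout 2. For number 3, with 7 probe sets, knockout 1 was lowest, at -0.52, and knockouts 2, 3 and 4 were at -0.27, 0.33 and 0.08 against 0.02 and 0.35. For number 2, with only Hoxa2 and Hoxb2, the levels were -0.67, -0.72, 0.81 and -0.19 against 0.28 and 0.48. Number 1, with Hoxb1 and Hoxd1, had no such dip, at 0.02, 0.30, -0.12 and -0.04 against -0.38 and 0.22, and neither probe set exceeded 135.5. Number 6 was low in knockout 1, at -0.37, and at -0.06 in knockout 2, while number 7 lay from -0.20 to 0.15 on all arrays. For number 8, with 3 probe sets, the levels were -0.09, -0.47, -0.25 and 0.55 against 0.26 and 0.00. Some higher numbers also spread, though less than numbers 2, 4 and 5, with wild type 1 lowest. Number 9 ran from -0.44 there to 0.45 in knockout 1, and number 10 from -0.66 to 0.54 in knockout 4. Number 12, with 1 probe set, ran from -0.56 to 0.76 in knockout 1. Numbers 11 and 13 lay from -0.30 to 0.28. Differences between animals were thus not limited to 1 stretch of the series.

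By cluster, the B genes varied most between the knockout mice, with a mean level over 11 probe sets of -0.50, -0.57, 0.43 and 0.09 against 0.14 and 0.41 in the wild type. The D genes, of which no probe set exceeded 259.3 on any array, stayed between -0.09 and 0.35. The A genes lay from -0.23 to 0.26 and the C genes from -0.29 to 0.28. No test was made between clusters.

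Members with low numbers other than Hoxb2 and Hoxb3 were dim and mixed. Hoxa2, the paralogue of Hoxb2 in the A cluster, read 54.8, 91.8, 110.2 and 166.0 against 78.4 and 120.0. Hoxd3 read 62.3, 117.4, 172.7 and 102.5 against 136.1 and 228.0, lowest in knockout 1. The 4 probe sets of Hoxa3, a gene needed for the thymus and parathyroids, had log2 fold changes of 0.41, 0.33, -0.18 and -0.32 from the brightest to the dimmest, so they did not move as 1. The brightest read 181.7, 184.0, 108.6 and 256.7 against 86.3 and 163.6 (limma adjusted p = 0.835).

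Among the middle numbers, Hoxb6 was lower in knockouts 1 and 2 by less, with 110.3, 113.5, 206.2 and 140.3 against 299.4 and 177.0. Knockout minus wild type was -0.58 ± 0.37 on the log2 scale (SE, limma adjusted p = 0.774), and -0.26 without wild type 1, the array that read highest. Hoxc6, a gene of the forelimb level of the cord, read 211.0, 313.9, 225.9 and 566.6 against 162.4 and 430.7 on its brightest probe set, 1427362_x_at, lowest in wild type 1. There the log2 fold change was 0.16 ± 0.44 (SE, limma adjusted p = 0.951). Leaving out wild type 1 gave -0.43, quantile normalisation -0.03 and median centring -0.06. The gene read 80.2, 139.2, 289.0 and 401.2 against 172.9 and 362.1 on probe set 1427361_at, lowest in knockout 1. The difference on that probe set was -0.29 ± 0.52 on the log2 scale (SE, limma adjusted p = 0.919). Hoxb4, which lies between Hoxb3 and Hoxb5, read 134.2, 34.1, 158.8 and 158.0 against 90.3 and 225.9 on its brighter probe set, low in knockout 2 only. Its dimmer probe set, 1451761_at, read 9.2, 56.0, 142.4 and 138.8 against 53.1 and 39.0, lowest in knockout 1 instead. Hoxd8 read 23.2, 10.4, 131.5 and 95.1 against 106.5 and 96.4 on probe set 1431099_at, with the low pair again in knockouts 1 and 2. Hoxb7 varied little, from 100.7 to 177.2, and Hoxa7 stayed from 14.1 to 23.1.

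Probe sets of the same gene did not all show the pattern. The brighter Hoxa5 probe set, 1443803_x_at, read 818.9, 821.0, 996.3 and 919.9 in the knockout mice and 817.4 and 902.7 in the wild type, a 1.22-fold range, while 1448926_at went from 659.7 in knockout 3 to 19.2 in knockout 2, a value at background. The suffix x marks a probe set whose probes may also match other transcripts. Its difference between genotypes was 0.04 ± 0.16 on the log2 scale (SE, limma adjusted p = 0.967). The dimmer Hoxb3 probe set, 1427605_at, read 33.0, 60.7, 85.1 and 46.1 against 128.5 and 41.6, lowest in knockout 1 and highest in wild type 1. Hoxc6 had 3 probe sets, and where 1427361_at was high in knockout 4, at 401.2, 1427454_at was lowest there, at 20.2.

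**Figure D3:**
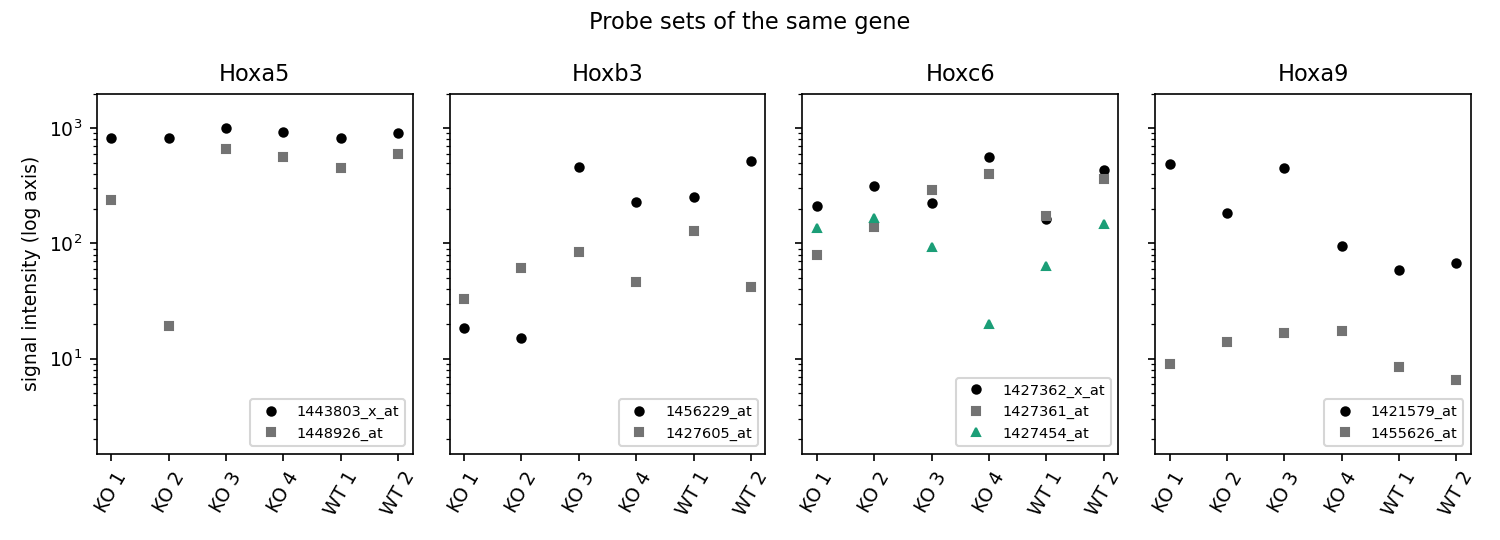
Signal intensity on a log axis by array for every probe set of Hoxa5, Hoxb3, Hoxc6 and Hoxa9, with 1 marker shape per probe set. Probe set 1448926_at of Hoxa5 falls to 19.2 in knockout 2, where 1443803_x_at reads 821.0.

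Hoxc9 and 1 of the 2 probe sets of Hoxa9 had another pattern. Hoxa9, a gene of thoracic cord and of blood progenitors, read 486.4, 185.2, 452.8 and 94.5 in the knockout mice and 59.0 and 68.0 in the wild type on probe set 1421579_at, with no overlap between the groups. The log2 fold change was 1.45 ± 0.54 (SE), with an unadjusted 95% interval of 0.25 to 2.65, the highest of all members (limma adjusted p = 0.738). It was 1.19 without knockout 1 and 1.82 without knockout 4. The other Hoxa9 probe set, 1455626_at, read 9.0, 13.9, 16.7 and 17.5 against 8.5 and 6.6, all of them near the median of the Y-linked probe sets.

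Hoxc9, which separates thoracic from limb-level motor neurons in the cord, read 272.0, 50.5, 395.4 and 83.2 against 39.0 and 55.4. Knockouts 1 and 3 were high, as for Hoxa9, and knockout 2 lay within the wild-type range. Its log2 fold change was 1.11 ± 0.59 (SE, limma adjusted p = 0.743), and it was 0.75 without knockout 3 and 1.47 without knockout 2. Hoxb9 read 27.1, 21.8, 31.5 and 48.0 against 16.1 and 175.0, and Hoxd9 20.7 to 91.1 over all arrays, so the other paralogues did not follow. The arrays high for Hoxa9 and Hoxc9 included knockout 1, where Hoxb3 and Hoxb5 were near background.

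Members 10 to 13, which pattern the lumbar cord, limbs and genital region, were never above 190.6. That value belonged to Hoxa11, which read 129.4, 96.5, 190.6 and 173.4 against 137.0 and 142.3. Hoxd10 ranged from 1.6 in wild type 1 to 148.8 in knockout 4, Hoxa13 from 15.3 to 132.0 and Hoxd12 from 11.3 to 102.9. Hoxb13 and Hoxc13 stayed at or below 27.4 on every array. In the wild-type mice, numbers 9 to 13 had a median signal of 15.8 in wild type 1 and 36.4 in wild type 2, against 34.2 to 74.8 in the knockout mice.

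The comparison of knockout with wild type called no Hox gene. In limma, 0 of the 48 passed an adjusted p of 0.05, as did 0 of all 45037 probe sets (0%), and the smallest adjusted p of a member was 0.738. An unadjusted p below 0.05 was found for 2 members, Hoxa9 and Hoxc4, or 4.17%, against 6.76% of all probe sets. One was higher and the other lower in the knockout, where 4.92% and 1.84% of all probe sets lay. Values of the 2 genotypes were fully separate for 4 members, or 8.33%, all higher in the knockout, against 16.1% of all probe sets, of which 11.3% were higher and 4.81% lower. These 4 were both probe sets of Hoxa9, 1 of Hoxd13 and Hoxb13. Hoxd13 read 79.3, 105.7, 70.7 and 105.8 against 66.2 and 65.3, a log2 fold change of 0.27, and Hoxb13 read 13.7, 8.9, 15.0 and 24.0 against 3.9 and 8.6. A share near or below that of all probe sets sets the Hox genes apart in neither count.

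The count at an unadjusted p below 0.05 was 1 without knockout 1, knockout 4, wild type 1 or wild type 2, 3 without knockout 2 and 5 without knockout 3.

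Over all members the median log2 fold change was 0.03, with 26 higher and 22 lower, while over all probe sets it was 0.08, with 60.3% higher. The 11 members with numbers 1 to 3 had a median of -0.22, with 4 higher. The 20 with numbers 4 to 8 had a median of -0.18, with 7 higher, and 0.06 without wild type 2. The 17 with numbers 9 to 13 had a median of 0.27, with 15 higher. Among the 18015 dimmest probe sets of the array, which hold 39 of the members, 67.5% were higher in the knockout, with a median of 0.16. Wild type 1 was the lowest array for 33.1% of those dim probe sets, and for 8 of the 17 members with numbers 9 to 13. The part of that array in the result was not tested.

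Scaling moved these counts. Median centring shifted the median of all probe sets from 0.08 to -0.14, and then 34.3% of all were higher in the knockout, with 3 of 11, 2 of 20 and 10 of 17 members in the respective classes. Quantile normalisation gave 49.0% of all, and 3, 4 and 12 members. Of all probe sets with an unadjusted p below 0.05, the share higher in the knockout was 72.8% as deposited, 54.0% with quantile normalisation and 20.3% with median centring.

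**Figure D4:**
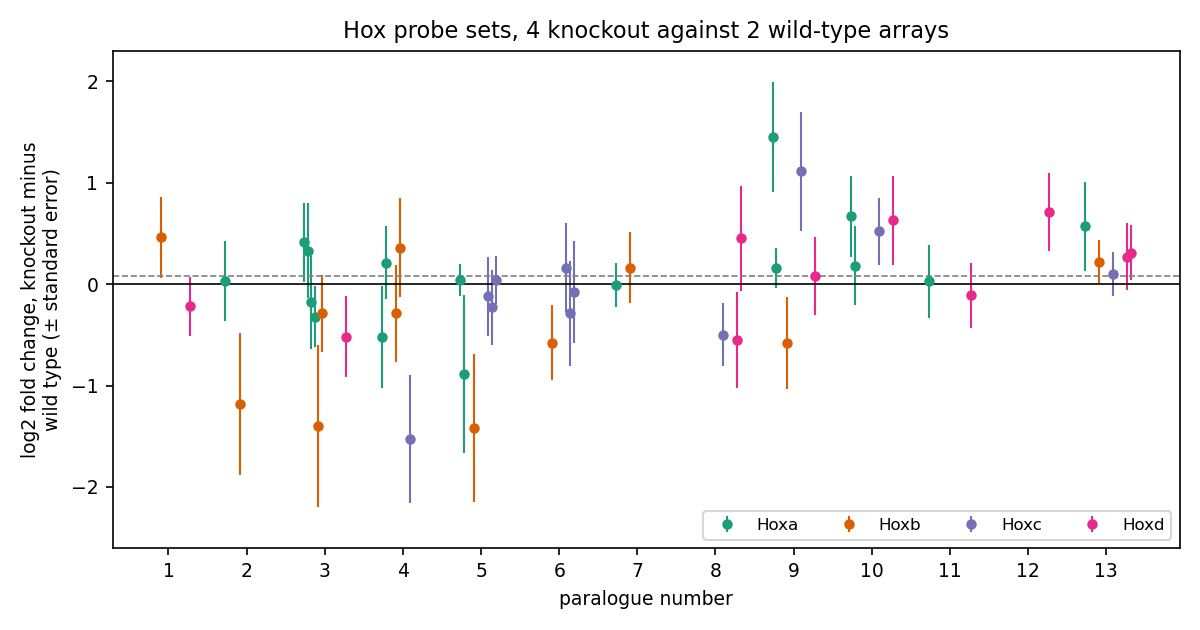
Log2 fold change, knockout minus wild type, with its standard error, for each of the 48 Hox probe sets by paralogue number, coloured by cluster; the dashed line is the median of all probe sets, 0.08. Values run from -1.53 for Hoxc4 to 1.45 for Hoxa9, and the standard errors of the largest ones reach 0.80.

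Other hindbrain genes varied between the mice as well. Of 15 listed genes of pons and medulla neurons 13 were measured, with 6 higher and 7 lower in the knockout and 0 past the threshold in either direction. The 2 lowest arrays were knockouts 1 and 2 for only 3 of the 13, namely Slc6a5, Glra1 and Prph. Knockout 2 was the lowest array for 7 of the 13. Slc6a5, the glycine transporter of inhibitory neurons in medulla and cord, read 353.8, 22.9, 997.6 and 802.8 against 872.0 and 999.8, low in knockouts 1 and 2 in the same order as Hoxa5. Glra1, a glycine receptor subunit, read 467.9, 126.4, 1417.3 and 1192.6 against 492.8 and 702.5. Prph, the peripherin of motor and sensory neurons, read 71.4, 60.6, 464.3 and 162.4 against 233.2 and 302.7, and it was singled out after its values were seen, as were Tph2 and Slc6a4 below. Dbh, of noradrenaline synthesis, read 712.0, 668.0, 915.1 and 1192.9 against 432.5 and 866.9, and Slc6a2, the noradrenaline transporter, 176.0 to 442.0.

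Serotonin neuron genes, which mark the raphe of midbrain, pons and medulla, differed from Hoxb3 and Hoxb5 in knockout 1. The serotonin enzyme Tph2 read 397.4 there, against 44.8 in knockout 2, 177.0 and 116.9 in knockouts 3 and 4, and 449.1 and 296.4 in the wild type. The serotonin transporter Slc6a4 read 441.5, 11.3, 157.3 and 228.1 against 407.5 and 367.5. Both were thus low in knockout 2 and high in knockout 1, while Hoxb3 and Hoxb5 were low in both.

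The cerebellum, which arises from the most anterior hindbrain in front of the Hox domain, separated knockout 1 from knockout 2. Its 13 listed genes, all measured, were lowest in knockout 2 in 12 cases, and their summed signal was 11644 there and 85123 to 121584 in the other knockout mice, against 110643 and 124318 in the wild type. In knockout 1 it was 113597, within that range. All 13 were lower in the knockout and 0 passed. Zic1 read 7234.4 in knockout 2 and 22151.6 to 28859.6 elsewhere, and Car8 1057.5 and 9323.1 to 16478.8. Neurod1 read 1930.6 and 7067.5 to 12444.2. Knockout 1 thus combined a cerebellum sum within the range of the other mice with Hoxb3 and Hoxb5 near background, and knockout 2 was low in both. Not every Hox probe set was that low in knockout 1, where Hoxa5 1448926_at read 239.1 and the brighter Hoxb4 probe set 134.2.

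**Figure D5:**
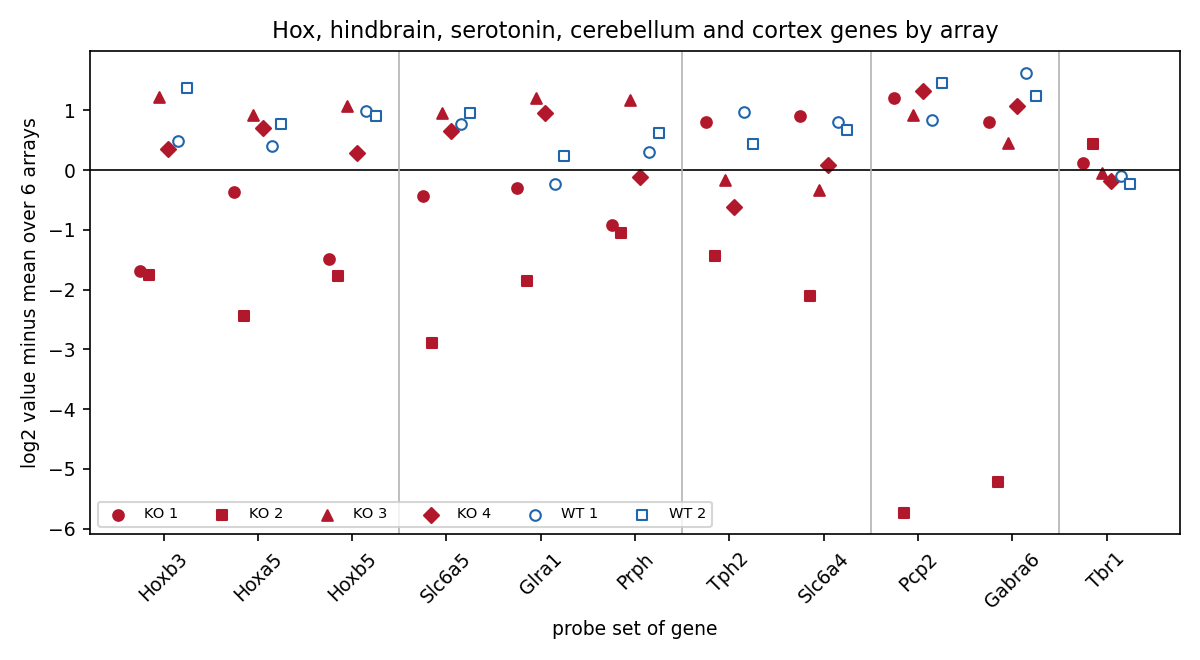
Log2 value minus its mean over the 6 arrays for 3 Hox genes, 3 genes of pons, medulla and cord neurons, 2 serotonin neuron genes, 2 cerebellum genes and the cortex gene Tbr1, with 1 marker per array. Knockout 1 is low for Hoxb3 and Hoxb5 and in the upper range for Tph2, Slc6a4 and Pcp2, while knockout 2 is low for all 10 genes other than Tbr1. The 3 genes of pons, medulla and cord neurons are the only ones of 13 measured whose 2 lowest arrays were knockouts 1 and 2.

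Spinal motor neuron and Schwann cell genes were measured for 5 of 7, with 1 higher and 4 lower and 0 past the threshold. Their summed signal was 3959, 3094, 5269 and 4648 on the knockout arrays against 6423 and 5899 in the wild type, with no overlap and the lowest sums in knockouts 1 and 2. The largest part of every sum was Pmp22, and each other measured gene of this list overlapped between the groups. Pmp22, a myelin protein, read 2811.5, 2360.6, 2918.7 and 3008.5 against 4696.0 and 3502.9, with no overlap and a log2 fold change of -0.55 ± 0.16 (SE, limma adjusted p = 0.738). Sncg, gamma-synuclein of motor and sensory neurons, read 796.6, 228.5, 1884.4 and 1321.3 against 1357.8 and 1940.5. Mnx1, which defines spinal motor neurons, stayed from 10.7 to 91.8, and Isl1 from 261.6 to 399.8.

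Forebrain genes, where Hox is silent, were measured for 13 of 15, with 8 higher, 5 lower and 0 past the threshold. Their summed signal was 18550 in knockout 2, 11374 to 13202 in the other knockout mice and 11955 and 13619 in the wild type. Neurod6, Bcl11b and Tbr1 were each highest in knockout 2, at 4821.9, 5470.4 and 2483.1, and Lhx2 read 1995.0 there against 1095.3 to 1615.8. In knockout 1 these 4 genes lay within the range of the other arrays.

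Other cells that can carry Hox RNA were covered by 3 lists, on which 0 genes passed. Meninges and fibroblast genes were all measured, 2 of 8 higher, with sums of 6778 to 9916 in the knockout and 8787 and 10198 in the wild type. Blood and immune genes were measured for 6 of 7, with 3 higher, and sums of 1545 to 2077 against 1755 and 2056. Skeletal muscle genes were all measured, 4 of 6 higher, with sums of 1812 to 2557 against 1501 and 1666, which did not overlap. The largest part of every muscle sum was Acta1, at 1147.8 to 1565.1 in the knockout and 1034.7 and 1088.2 in the wild type. No listed gene was at 0 on any array. Blood sums were lowest in knockout 1, where Hoxa9 was highest, and muscle sums were highest in knockout 3, where Hoxc9 was highest. Acta1 and some other muscle genes were also highest in knockout 3, and the rest of that list were highest in knockout 4. The part of blood and muscle in those Hox values was not tested.

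Hox proteins bind DNA together with cofactors of the Pbx, Meis and Pknox families, which are not limited to the hindbrain. Of 9 listed cofactor genes 8 were measured, 4 higher, 4 lower and 0 past the threshold. Meis2 read 7261.6, 11594.8, 9965.8 and 4725.5 against 4907.4 and 8152.7, highest in knockout 2. Pbx3 was lowest in knockouts 1 and 2, at 1502.4 and 1564.8 against 2108.5 to 2588.1 elsewhere, with a log2 fold change of -0.35 ± 0.19 (SE, limma adjusted p = 0.746). Pknox2 and Pbx2 had log2 fold changes of 0.09 and -0.26 with standard errors of 0.14 and 0.15.

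Polycomb and trithorax genes, which keep Hox genes off or on, were measured for 15 of 16, with 4 higher, 11 lower and 0 past the threshold. Their summed signal was 20132 to 21809 in the knockout and 20724 and 23478 in the wild type. Phc2, Ezh1, Bmi1 and Rnf2, of the repressive complexes, had log2 fold changes of -0.02, -0.05, -0.28 and -0.13, with standard errors of 0.12 to 0.16.

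Retinoic acid switches Hox genes on in the embryonic hindbrain. Of 15 listed genes of retinoid signalling 13 were measured, 8 higher, 5 lower and 0 past the threshold. Aldh1a1, which makes retinoic acid, read 7319.1, 3671.5, 6757.8 and 7980.8 against 10576.9 and 9378.5, with a log2 fold change of -0.69 ± 0.27 (SE, limma adjusted p = 0.738). The receptors Rxrb and Rarg had log2 fold changes of -0.37 and -0.11, and Aldh1a2 0.23.

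Direct activators and neighbours of the clusters were measured for 8 of 9, with 6 higher, 2 lower and 0 past the threshold. Egr2, an activator of Hoxa2 and Hoxb2 in the embryo that adult neurons also induce with activity, read 964.4, 1305.1, 497.0 and 505.9 against 398.6 and 289.1. It was thus highest in knockouts 1 and 2, where Hoxb2 was 38.8 and 10.9. But Hoxb2 was also low in knockout 4, at 32.9, where Egr2 was close to its value in knockout 3. The log2 fold change of Egr2 was 1.04 ± 0.37 (SE, limma adjusted p = 0.738). Evx2, next to the D cluster, read 191.3, 207.1, 264.4 and 229.9 against 89.7 and 155.1, Gdf11 53.6 to 397.5 and Gbx2 114.7 to 194.1.

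Noncoding transcripts of the clusters were measured for 3 of 11 listed names, with 2 higher, 1 lower and 0 past the threshold. Hoxb5os, annotated opposite Hoxb5 and Hoxb6, read 248.2, 311.7, 308.2 and 279.7 against 143.8 and 267.1. It was therefore not low in knockouts 1 and 2, where Hoxb5 read 27.3 and 13. Hoxa11os stayed at or below 78.4 on the brighter of its probe sets, and Hoxd3os1 was highest in knockout 4, at 236.7.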

How the data were processed

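Brain total RNA of 6 mice was measured on Affymetrix arrays, 1 per mouse. The authors deposited 1 signal intensity per probe set on a linear scale, with GCOS 1.3 named in the submitters' processing notes. Not given in the sources used here: summary method, detection calls, scaling target, build. A mean of 1000.0 per array, after trimming to the central 96% of values, showed that the arrays had a common scale.

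Of 45101 probe sets, 64 controls were left out. Symbols came from the platform annotation, and all 33 Hox genes matched RefSeq by gene identifier, with 0 symbols changed. Signals were taken to log2 after an offset of 49.6 (20th percentile over all arrays), which understates changes of dim genes. Knockout minus wild type was fitted on all probe sets with lmFit and eBayes with an intensity trend (limma 3.58.1, R 4.3.3), giving 4 residual and 5.91 prior degrees of freedom. Benjamini-Hochberg adjustment of the 2-sided p-values ran over all probe sets. The fit was tested on simulated data with large changes in bright probe sets and a smaller spread than most Hox probe sets had. Recovery of changes in dim or more variable probe sets was not tested. Tables and plots were made in Python 3.11.15.

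Values on every array are given for members above the 40th percentile of mean log2 value, or with an unadjusted p below 0.05 or no overlap, with others added after their values were seen. Each listed gene stands for its brightest probe set, and up to 4 are named per list. The members, lists and tests were chosen with earlier results of these data known. Alternatives were quantile normalisation, median centring, offsets 4 times larger and 0.25 times as large, a dim filter that removed 40% of probe sets, no intensity trend, and each array left out.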

Additional observations from a re-analysis of the deposited data

Results flagged for a closer look

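Among the 4 knockout arrays, Hoxc4 in knockout 3 lay far from the other 3. It read 290.5, against 22.7, 20.7 and 25.4, and the gap took up 0.96 of the group's range on the log2 scale. The value lay between those of the 2 wild-type arrays. The other 3 values lay below the offset of 49.6, which draws them together on that scale. This was the only such case in 21 groups of 4 values examined, covering the named Hox probe sets and the 3 paralogue classes. Chance gives about 1 in 20 for groups not chosen by their values. Some of these probe sets were chosen by their spread or group difference, and the classes contain them, so that rate does not apply here.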

How the results depend on the processing

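No paired analysis was possible because the labels give no replicate numbers, and the numbers used here only name the arrays. No Hox probe set passed the adjusted threshold under any alternative. With any 1 array left out, the members under an unadjusted p of 0.05 numbered 1 to 5, those higher in the knockout 21 to 32, and the median log2 fold change ran from -0.07 to 0.12. The medians of numbers 1 to 3, 4 to 8 and 9 to 13 ran from -0.34 to -0.12, -0.35 to 0.06 and 0.22 to 0.34. Over all probe sets, 0 to 171 passed and 1624 to 5336 had an unadjusted p below 0.05. The highest counts came without wild type 2, a fit that takes its spread from the knockout arrays alone and assumes that the lone wild type 1 varies like them. For the log2 fold changes of single probe sets, these fits gave -0.03 to 0.11 for Hoxa5 1443803_x_at, -0.43 to 0.75 for Hoxc6 1427362_x_at and -0.74 to 0.15 for Hoxc6 1427361_at.

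Median centring gave 4 members under an unadjusted p of 0.05 and 15 higher, and turned Hoxa5 1443803_x_at to -0.17, Hoxc6 1427362_x_at to -0.06 and Hoxa9 1455626_at to -0.06. Quantile normalisation turned Hoxc6 1427362_x_at to -0.03. The median of numbers 9 to 13 was 0.15 after quantile normalisation, 0.06 after median centring, 0.10 and 0.56 with the larger and smaller offset, and 1.45 with the dim filter, which kept 9 members and 1 of that class. That filter gave a median over members of -0.29, 4 higher and 1 under an unadjusted p of 0.05, and leaving out the intensity trend gave 1. The cause of the other changes was not tested. Dim signals limit what could be seen: 39 of the 48 probe sets lay below the dim filter.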

Other observations

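Probe sets annotated to more than 1 Hox gene were not members. The probe set shared by Hoxb8 and Hoxb7 read 49.0, 106.1, 56.5 and 153.5 on the knockout arrays, in order, and 267.3 and 156.5 on the wild-type arrays, without overlap. The log2 difference was -0.92 ± 0.42 (SE, limma adjusted p = 0.738). Knockouts 1 and 3 were the lowest arrays, so it had neither the order of Hoxb5 nor that of Hoxa9. Both probe sets shared by Hoxd4 and Hoxd3 were dim, at 48.5, 48.8, 121.6 and 80.6 against 81.7 and 84.5 for the brighter and 10.7 to 116.1 for the other.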
